A study of Homo sapiens with 10 samples.

Results

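Metallothioneins are small cysteine-rich proteins that bind zinc and copper. The genes described here were those among the 25538 genes of a count table whose symbols are metallothioneins of classes 1 and 2 (MT followed by 1 or 2 and a letter), together with MTF1 and SLC30A1, 6 genes in all. They were MT2A (ENSG00000125148), MT1X (ENSG00000187193), MT1F (ENSG00000198417), MT1A (ENSG00000205362), MTF1 (ENSG00000188786) and SLC30A1 (ENSG00000170385). The 4 metallothionein genes lie on chromosome 16, and MTF1 and SLC30A1 on chromosome 1. Other metallothionein genes were not analysed here. The counts came from RNA-seq of A549 cells, a human lung adenocarcinoma line, and the series concerns EP300, a histone acetyltransferase and coactivator, in the fast response to a glucocorticoid. P300 Dex cells (n = 2) were transfected with 1 ug of a vector for an EP300-GFP fusion and were treated for 1 h with dexamethasone (Dex), a synthetic glucocorticoid, at 100 nM. P300 EtOH cells (n = 2) received the fusion vector and ethanol (EtOH) for 1 h. GFP Dex cells (n = 3) and GFP EtOH cells (n = 3) received a vector for GFP alone and the same treatments. In all 4 groups the medium held charcoal-stripped serum, treatment followed 48 h after transfection, and the cells were fixed in ethanol and sorted for GFP, so each library comes from transiently transfected cells. Libraries are called by group and by the replicate number of the labels. Nothing in the labels says that numbers stand for separate cultures, and p-values thus reflect library-to-library spread, part or all of which may be technical.

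Free zinc in the cell is sensed by MTF1, a zinc finger transcription factor that binds metal response elements in promoters of metallothionein genes and of SLC30A1. Metallothioneins hold zinc in the cytosol, and SLC30A1 exports it across the plasma membrane. MT2A is also a long-known glucocorticoid-induced gene, and metallothioneins buffer cadmium, copper and oxidants in lung epithelium.

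The sequence that gives these proteins their metal binding is shown first, because MT2A and MT1X differ little in it. The coding sequences of both, from GENCODE 29 (GRCh38, chromosome 16), are 183 bases each without the stop codon, written 5′ to 3′ with cysteine codons in capitals.
MT2A: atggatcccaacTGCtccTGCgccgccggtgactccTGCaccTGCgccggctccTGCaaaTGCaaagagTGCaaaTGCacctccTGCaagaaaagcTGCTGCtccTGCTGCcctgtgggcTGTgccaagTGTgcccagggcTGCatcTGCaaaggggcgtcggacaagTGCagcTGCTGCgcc
MT1X: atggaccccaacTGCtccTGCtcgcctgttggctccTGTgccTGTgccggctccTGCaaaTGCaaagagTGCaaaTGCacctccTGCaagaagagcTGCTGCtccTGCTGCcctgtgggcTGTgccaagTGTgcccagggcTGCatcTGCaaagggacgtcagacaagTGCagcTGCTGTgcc
In each, 20 of 61 codons (32.8%) encode cysteine. The MT2A and MT1X coding sequences were identical at 169 of 183 bases (92.3%), and identity between the other pairs of the 4 metallothioneins lay between 88.5% and 92.3%. Of the stretches of 50 bases in the main MT1X transcript, 45.1% occurred in transcripts of other genes, the MT1XP1 and MT1P1 pseudogenes among them. For MT2A this share was 4.88%, for MT1F 3.59%, for MT1A 5.76%, for MTF1 0.896% and for SLC30A1 0%. The MT2A share rests on a transcript of 786 bases. In GENCODE the MT2A gene begins before the RefSeq start used below, so this transcript may include bases shown there as promoter. If it does, the share for a transcript from the RefSeq start may be higher. How reads with several matches were handled is not given in the sources used here, and MT1X counts are uncertain to the extent that such reads were dropped or placed on a copy.

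The promoters of the 4 genes that the results turn on follow, because the metal response element through which MTF1 acts is spread unequally over them. Each is the 250 bases before the annotated start on the gene's strand, 5′ to 3′, from RefSeq (GRCh38.p14), with matches to a metal response element core, TGCACNC or TGCGCNC on either strand, in capitals. The windows are chr16:56608334-56608583 (plus strand) for MT2A, chr16:56682220-56682469 (plus) for MT1X, chr1:211579162-211579411 (minus) for SLC30A1 and chr1:37859593-37859842 (minus) for MTF1. GENCODE 29 places the starts elsewhere. Its MT2A gene begins at 56608199, so the MT2A window lies inside it, and its SLC30A1 gene begins at 211578742. Its MT1X and MTF1 genes begin within their windows. Motif counts and distances below hold for the RefSeq starts only.
MT2A: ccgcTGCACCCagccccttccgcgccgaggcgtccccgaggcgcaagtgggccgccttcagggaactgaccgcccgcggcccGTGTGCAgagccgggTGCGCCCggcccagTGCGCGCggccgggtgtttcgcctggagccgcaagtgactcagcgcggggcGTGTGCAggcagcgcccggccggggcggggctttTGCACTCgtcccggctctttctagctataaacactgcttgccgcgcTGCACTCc
MT1X: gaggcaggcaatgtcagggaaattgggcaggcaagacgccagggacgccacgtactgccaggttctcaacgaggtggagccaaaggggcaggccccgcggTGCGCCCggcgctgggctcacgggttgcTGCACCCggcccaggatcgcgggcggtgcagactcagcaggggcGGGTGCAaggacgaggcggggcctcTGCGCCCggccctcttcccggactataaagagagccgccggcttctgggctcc
SLC30A1: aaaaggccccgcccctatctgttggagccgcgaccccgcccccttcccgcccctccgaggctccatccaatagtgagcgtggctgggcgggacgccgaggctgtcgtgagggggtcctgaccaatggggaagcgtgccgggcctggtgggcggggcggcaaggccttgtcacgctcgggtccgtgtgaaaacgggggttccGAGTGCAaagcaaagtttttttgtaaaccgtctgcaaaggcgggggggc
MTF1: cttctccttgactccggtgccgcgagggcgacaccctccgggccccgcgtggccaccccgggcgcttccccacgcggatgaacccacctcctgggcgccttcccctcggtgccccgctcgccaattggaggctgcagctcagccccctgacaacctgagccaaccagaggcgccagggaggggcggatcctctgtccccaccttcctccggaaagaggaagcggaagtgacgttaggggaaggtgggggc
The MT2A window held 7 metal response element cores, the MT1X window 4, the SLC30A1 window 1 and the MTF1 window 0. Among 35116 RefSeq promoters of the same length, 24.8% held at least 1 core, 0.37% at least 4 and 0.0513% at least 6. A TATA box (TATAAA) stood 29 bases before the MT2A start and 30 bases before the MT1X start, and 10.7% of all promoters held one. An AP-1 site (TGACTCA) occurred once in MT2A and in none of the other 3 windows, against 4.2% of all promoters. The GC box of SP1 (GGGCGG) occurred 6 times in SLC30A1, 2 times each in MT2A and MT1X and once in MTF1. At least 1 GC box was held by 42.6% of promoters and at least 6 by 2.22%. Matches on both strands were counted, and a GC box overlaps the end of a metal response element core in MT1X, as do neighbouring GC boxes in SLC30A1. The core of the glucocorticoid response element (ACANNNTGT) was in none of the 4 windows and in 4.61% of all promoters, which says only that these letters are not in these 250 bases.

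**Figure D1:**
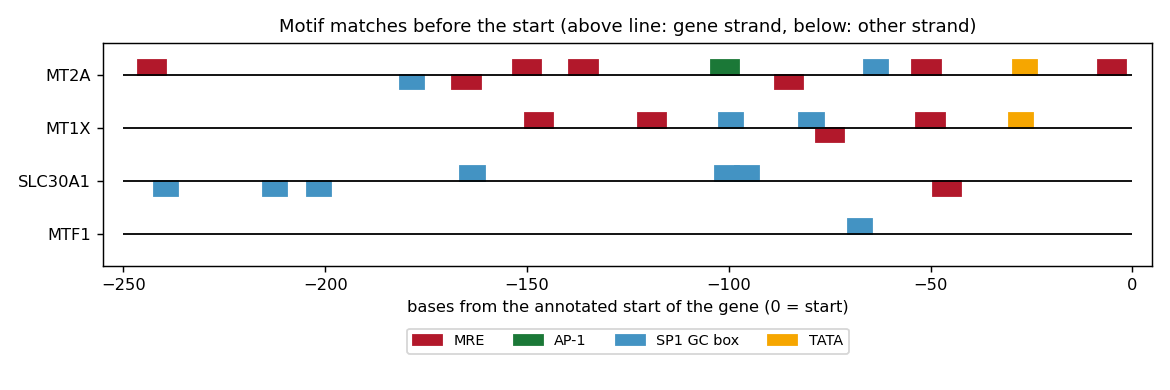
Matches to 4 motifs in the 250 bases before the annotated start of MT2A, MT1X, SLC30A1 and MTF1, by distance in bases from the start (boxes above a line are on the gene's strand, boxes below it on the other strand). MT2A carries 7 metal response element cores (MRE) over nearly the whole window and MT1X 4, all within 150 bases of its start, while SLC30A1 has 1 and 6 GC boxes, and MTF1 has a single GC box.

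The libraries differed in depth and in the amount of EP300 before any metallothionein is considered. Totals were 9215550 to 13122367 counts in 9 libraries and 2278717 in P300 EtOH 2, where 11861 genes had 0 counts and 3 counts correspond to 1.34 CPM (counts per 1e+06 counts, with TMM scaling), against 0.217 to 0.333 CPM in the other 9. EP300 took 28.8% and 2.42% of counts in P300 Dex 1 and 2, 28.6% and 13.4% in P300 EtOH 1 and 2, and 0.0271% to 0.0386% in the 6 GFP libraries. The common dispersion was 0.596 over the P300 libraries and 0.0596 over the GFP libraries. The 7 lung epithelial markers measured summed to 6535 to 22298 CPM, led by keratins, with SFTPB at 0 in P300 EtOH 2. The fibroblast markers (4 of 4 measured) summed to 48.0 to 81.4 CPM in P300 libraries and 13.2 to 28.1 CPM in GFP libraries, the endothelial markers (2 of 3) to 3.25 to 22.8 CPM in P300 and 0.841 to 2.07 CPM in GFP libraries, and the leukocyte markers (2 of 4) to 1.34 to 6.10 CPM in P300 and 1.07 to 2.15 CPM in GFP libraries. PTPRC was at 0 in 7 of 10 libraries and DCN in 6. The EP300, fibroblast and endothelial values moved with the construct, as does everything below that sets P300 against GFP, and their part in those results was not tested.

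Of the 4 metallothionein genes measured, MT2A supplied most counts in every library. It made up 89.8% to 99.0% of the counts of the 4 metallothionein genes, which summed to 368 and 466 CPM in P300 Dex 1 and 2, 303 and 142 CPM in P300 EtOH 1 and 2, 825, 526 and 577 CPM in GFP Dex 1, 2 and 3, and 527, 471 and 341 CPM in GFP EtOH 1, 2 and 3. Per kilobase of main transcript (CPM per kb), MT2A stood at 512 ± 82.6 in P300 Dex, 259 ± 124 in P300 EtOH, 802 ± 206 in GFP Dex and 560 ± 121 in GFP EtOH (SD, n = 2 in P300 and 3 in GFP groups). On that scale MT1X had 21 ± 7.47 in GFP Dex and 7.71 ± 1.37 in GFP EtOH, and SLC30A1 had 13.1 ± 2.76 in GFP Dex and 12.9 ± 1.83 in GFP EtOH (SD, n = 3 each). MTF1 had 4.55 ± 0.407 in GFP Dex and 4.16 ± 0.837 in GFP EtOH, and MT1F had 4.65 ± 0.926 in GFP Dex and 3.81 ± 2.13 in GFP EtOH (SD, n = 3 each). The order of levels in GFP Dex was thus MT2A, MT1X, SLC30A1, then MT1F and MTF1, which did not differ beyond their spread, and the libraries of MT1X and SLC30A1 overlapped in range. In GFP EtOH, SLC30A1 stood above MT1X. Lengths over all annotated exons instead of the main transcript put MT1X at 5.34 and MT2A at 485 CPM per kb in GFP Dex, so the place of MT1X among the lower genes depends on which transcript is counted. The main MT2A transcript was taken as 786 bases, from GENCODE, where the gene begins before the promoter window printed above. Where that transcript begins is not given here. If it includes the window, the MT2A values per kb are too low for the RefSeq start, and MT2A would remain the highest.

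**Figure D2:**
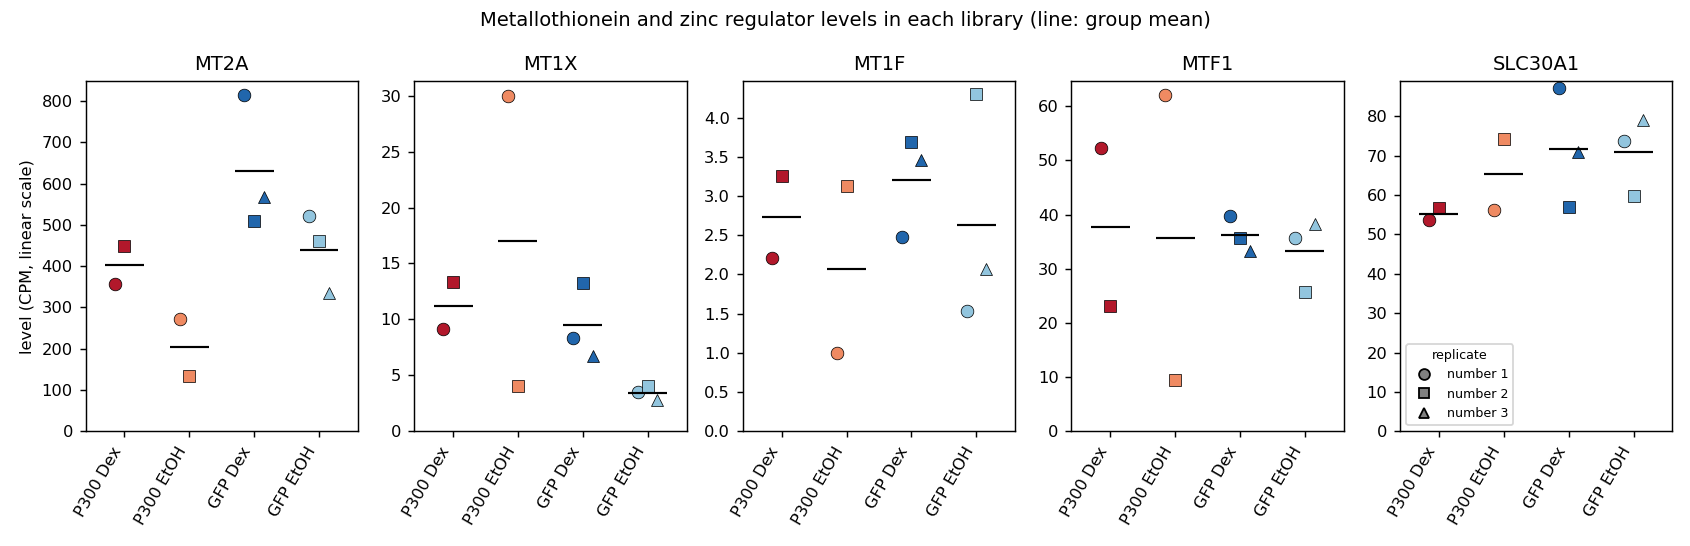
Level in CPM (linear scale) of MT2A, MT1X, MT1F, MTF1 and SLC30A1 in each of the 10 libraries, by group, with the group mean as a line and the replicate number as the symbol. MT2A is lower in every P300 library than in the GFP libraries of the same treatment, MT1X is higher in each GFP Dex library than in each GFP EtOH library, and P300 EtOH 1 stands far above the rest for MT1X.

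Within the GFP cells, which show the hormone response without added EP300, MT1X and MT2A were the metallothioneins that passed the test with libraries paired by number, and the sensor MTF1 and the exporter SLC30A1 had levels that differed less than their spread. MT1X had 8.38, 13.2 and 6.77 CPM in GFP Dex 1, 2 and 3, against 3.52, 4.06 and 2.83 CPM in GFP EtOH 1, 2 and 3 (108, 183 and 92 counts in GFP Dex against 46, 51 and 37 in GFP EtOH). All 3 GFP Dex libraries lay above all 3 GFP EtOH libraries, which held for 1 of the 6 genes and for 4.03% of the 19433 genes tested. Within each number the Dex library exceeded the EtOH library by 1.21, 1.66 and 1.21 on the log2 CPM scale, the highest level and the largest difference both being in number 2. MT2A had 814, 509 and 567 CPM in GFP Dex 1, 2 and 3, against 522, 462 and 336 CPM in GFP EtOH 1, 2 and 3. The ranges of MT2A overlapped, since GFP Dex 2 lay below GFP EtOH 1. Compared within a number, MT2A was higher after Dex in 3 of 3, by 0.64, 0.14 and 0.76 (log2 CPM), with little difference in number 2.

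In edgeR the calls on these 2 genes rested on the pairing of libraries by number. In edgeR's quasi-likelihood test with group as the only term, 0 of the 5 members tested passed an adjusted p of 0.05 (Benjamini-Hochberg over 16697 genes), against 0.0419% of all genes, that is 7 genes. There the log2 fold change of MT1X was 1.45 ± 0.31 (SE; edgeR adjusted p = 0.514) and that of MT2A 0.51 ± 0.23 (adjusted p = 1.0). When the 6 GFP libraries were fitted with the replicate number as a block, MT1X rose 2.67-fold (log2 1.41 ± 0.19, adjusted p = 0.00204 by edgeR) and MT2A rose 1.42-fold (log2 0.51 ± 0.11, adjusted p = 0.0410). With the block in a fit of all 10 libraries neither was called, MT1X standing at 1.44 ± 0.61 and MT2A at 0.52 ± 0.24 (edgeR adjusted p = 1.0 for both). The blocked fit of the GFP libraries called 1.66% of genes, 277 in all, and 171 of these, 1.02% of genes, were higher. By p, MT1X had rank 62 and MT2A rank 248 of the 16697 genes, and TSC22D3, a direct glucocorticoid target that checks the treatment, had rank 20, at 2.56 ± 0.26. DESeq2 without the block called MT1X (1.46, adjusted p = 0.0208) and not MT2A (adjusted p = 1.0). It called 56 of the 16697 genes, against 7 by edgeR. With any of the 3 numbers left out of the blocked fit MT1X was still called, while MT2A was not without number 1 (edgeR adjusted p = 0.0819) or number 3 (adjusted p = 0.424). Those fits keep few libraries to estimate the spread. Without numbers 1, 2 and 3 they called 363, 1198 and 248 genes. The adjusted p of MT1X there, 3.9e-06, 1.6e-05 and 1.2e-05 by edgeR, was smaller than with all numbers. These fits thus cannot show how firm either call is.

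MT1F and MT1A, the scarcer metallothioneins, gave no call. MT1F had 2.48, 3.69 and 3.46 CPM in GFP Dex 1, 2 and 3, against 1.53, 4.30 and 2.06 CPM in GFP EtOH 1, 2 and 3. It was higher after Dex in numbers 1 and 3 and lower in number 2, with a blocked log2 fold change of 0.34 ± 0.27 (edgeR adjusted p = 0.580). MT1A did not pass the filter on low counts in any comparison. It had 2 and 9 counts in P300 Dex 1 and 2, 0 and 0 in P300 EtOH 1 and 2, 1, 1 and 3 in GFP Dex 1, 2 and 3, and 1, 1 and 0 in GFP EtOH 1, 2 and 3. The zeros of P300 EtOH 1 and 2 allow up to 0.333 and 1.34 CPM (3 counts per library), so its level there was not measurable at this depth.

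MTF1, the sensor, had 39.7, 35.6 and 33.3 CPM in GFP Dex 1, 2 and 3, against 35.6, 25.6 and 38.3 CPM in GFP EtOH 1, 2 and 3. Its libraries overlapped, and the Dex library was higher in numbers 1 and 2 and lower in number 3. The log2 fold change was 0.13 ± 0.14 in the blocked edgeR fit (adjusted p = 0.677). SLC30A1, the exporter, had 87.2, 57.0 and 71.0 CPM in GFP Dex 1, 2 and 3, against 73.8, 59.7 and 79.1 CPM in GFP EtOH 1, 2 and 3. Its Dex library was higher in number 1 and lower in numbers 2 and 3, and the fitted change was 0.00 ± 0.11 (edgeR, blocked, adjusted p = 0.995). For SLC30A1 the order of numbers, 1 and 3 above 2, was the same in both GFP groups.

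**Figure D3:**
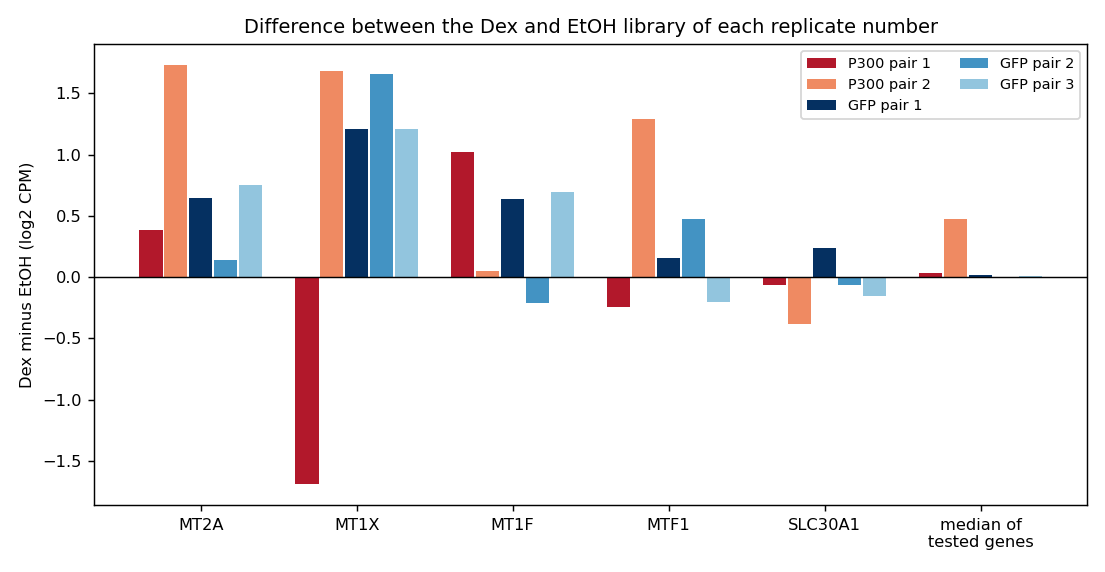
Dex minus EtOH difference in log2 CPM within each replicate number, for the P300 pairs 1 and 2 and the GFP pairs 1, 2 and 3, with the median over tested genes at the right. MT2A is above 0 in 5 of 5 pairs, MT1X in 4 of 5 with P300 pair 1 at -1.69, and SLC30A1 above 0 in GFP pair 1 alone.

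In P300 cells, MT2A was again higher after dexamethasone, while MT1X went opposite ways in the 2 pairs. MT2A had 357 and 449 CPM in P300 Dex 1 and 2, against 273 and 135 CPM in P300 EtOH 1 and 2. Both Dex libraries lay above both EtOH libraries, as they did for 17.3% of the 19433 genes tested, and the within-number differences were 0.39 and 1.73 (log2 CPM). The larger of these is in number 2, whose EtOH library is the shallow one, where the median tested gene also differed by 0.48. The log2 fold change of MT2A was 0.93 ± 0.57 with group only (edgeR adjusted p = 1.0) and 1.03 ± 0.36 with the block (adjusted p = 1.0). No member of 5 passed. Of all 16630 genes edgeR called 0, or 0%, with group only (128 at an unadjusted p under 0.05, and 0 by DESeq2), and 6, or 0.0361%, with the block. With the block, the P300 libraries leave almost nothing to estimate the spread, so the SE and p-values of that fit are not a firm measure.

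MT1X had 9.15 and 13.3 CPM in P300 Dex 1 and 2, against 29.9 and 4.02 CPM in P300 EtOH 1 and 2 (87 and 123 counts in P300 Dex against 270 and 9 in P300 EtOH). P300 EtOH 1 held the highest MT1X level of the 10 libraries and P300 EtOH 2 one within the range of GFP EtOH, so the P300 EtOH mean of 17 CPM has an SD of 18.3 (n = 2). The Dex minus EtOH difference was -1.69 in number 1 and 1.68 in number 2 (log2 CPM). Fitted, it was -0.70 ± 1.07 with group only and 1.53 without P300 EtOH 1 (edgeR, adjusted p = 1.0 and 0.758). MTF1 also varied widely, with 52.3 and 23.2 CPM in P300 Dex 1 and 2, against 62.0 and 9.39 CPM in P300 EtOH 1 and 2. In both treatments number 1 had the higher MTF1 level, and the fitted change was 0.01 ± 0.89. SLC30A1 varied least of the 5 genes, at 53.8 and 56.8 CPM in P300 Dex 1 and 2, against 56.2 and 74.2 CPM in P300 EtOH 1 and 2. MT1F had 2.21 and 3.25 CPM in P300 Dex 1 and 2, against 0.998 and 3.13 CPM in P300 EtOH 1 and 2, the EtOH values resting on 9 and 7 counts.

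The share of MT1X among MT1X and MT2A counts does not depend on the scaling of libraries. It was 1.02%, 2.53% and 1.18% in GFP Dex 1, 2 and 3, against 0.669%, 0.871% and 0.836% in GFP EtOH 1, 2 and 3. The Clopper-Pearson intervals (95%, counting error only) were 2.18% to 2.92% for GFP Dex 2 and 0.649% to 1.14% for GFP EtOH 2, which do not meet. The intervals of the other numbers do meet, at 0.836% to 1.23% and 0.49% to 0.892% for GFP Dex 1 and GFP EtOH 1 and at 0.953% to 1.45% and 0.589% to 1.15% for GFP Dex 3 and GFP EtOH 3. In P300 Dex 1 and 2 the share was 2.50% and 2.89%, against 9.90% (8.81% to 11.1%) and 2.89% (1.33% to 5.42%) in P300 EtOH 1 and 2. All 4 P300 shares exceeded the GFP shares of the same treatment and number, in Dex of number 2 by less than the intervals allow to be told apart.

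**Figure D4:**
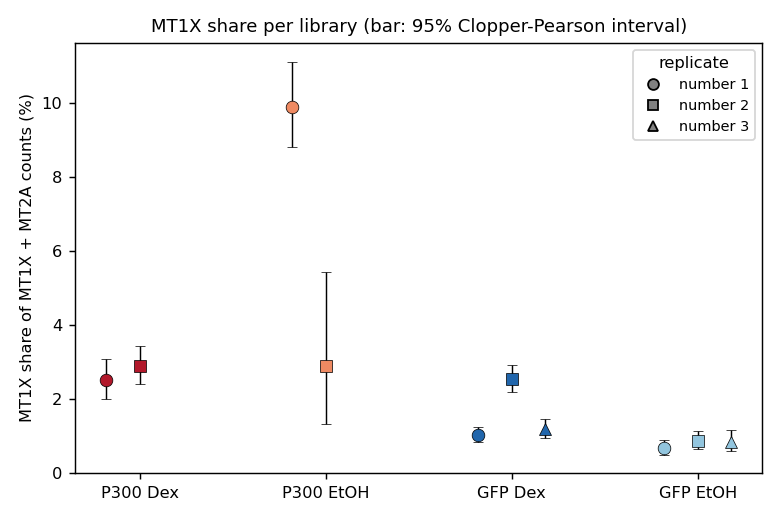
Share of MT1X in the summed MT1X and MT2A counts of each library, in percent, with 95% Clopper-Pearson intervals, by group and replicate number. P300 EtOH 1 stands at 9.90%, the other P300 libraries between 2.50% and 2.89%, and the GFP libraries between 0.669% and 2.53%.

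Between constructs, the sides of each comparison share libraries with the hormone comparisons, so the values are set side by side and not counted as further evidence. MT2A was lower in P300 than in GFP cells under both treatments. In EtOH it averaged 204 ± 97.2 CPM in P300 cells (SD, n = 2) and 440 ± 95 CPM in GFP cells (SD, n = 3), and both P300 libraries lay below all 3 GFP libraries, as for 28.5% of the genes tested. In Dex it averaged 403 ± 64.9 CPM in P300 cells (n = 2) and 630 ± 162 CPM in GFP cells (n = 3), again without overlap, as for 18.3% of genes. Within a number the P300 minus GFP difference of MT2A was -0.94 and -1.77 in EtOH and -1.19 and -0.18 in Dex (log2 CPM), where the median tested gene differed by -0.20 and -0.54 in EtOH and by -0.18 and -0.01 in Dex. Whether fewer expressing cells or less RNA per cell lies behind a bulk difference of this kind cannot be told apart.

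No member passed the threshold between constructs in the edgeR fits of all 10 libraries. In EtOH edgeR called 541 of 19433 genes, 2.78%, with group only and 2.55% with the block, and in both fits 0 of the 5 members tested. MT2A had a log2 fold change of -1.11 ± 0.36 (adjusted p = 0.0959, with the block -1.26 ± 0.29 and 0.0531) against a median of -0.18 over all genes. With the block and only the libraries compared it passed, at -1.30 ± 0.25 (edgeR adjusted p = 5.66e-05). Number 3 has no P300 library, so that fit rests on the differences within numbers 1 and 2, -0.94 and -1.77 (log2 CPM). The second of these uses the shallow P300 EtOH 2. Almost nothing is left in that fit to estimate the spread, so its SE and p-value are not a firm measure. The share of all genes that it called is not given here, so how unusual the call is cannot be told. MT1X had 2.33 ± 0.66 (edgeR adjusted p = 0.0742), a value set by P300 EtOH 1, without which it was 0.19. It passed by DESeq2, at 2.49 and an adjusted p of 0.00830, where DESeq2 called 2409 genes, against 541 by edgeR. Without P300 EtOH 1, MT2A stood at -1.73 and MTF1 at -1.85. Both then rested on the shallow P300 EtOH 2 as the only P300 EtOH library, whose spread is assumed to be that of the other groups. Without P300 EtOH 2 in its place, MT2A stood at -0.76 and MT1X at 3.04, again with a single P300 EtOH library. SLC30A1 differed by -0.12 ± 0.29 and MTF1 by 0.14 ± 0.60 in the fit of all libraries.

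In Dex edgeR called 2 genes, or 0.0103%, and again 0 of 5 members. MT2A had a log2 fold change of -0.65 ± 0.35 (edgeR adjusted p = 0.488) and SLC30A1 -0.38 ± 0.29 (adjusted p = 0.647). These were the 2 members whose P300 libraries all lay below the GFP libraries, as for 18.3% of the 19433 genes tested. The SLC30A1 libraries stood close, since P300 Dex 2 at 56.8 CPM lay just under GFP Dex 2 at 57.0 CPM. MT1X differed by 0.25 ± 0.66, MTF1 by 0.06 ± 0.60 and MT1F by -0.23 ± 0.71. The test of whether the hormone response itself differed between constructs called 0 of 5 members and 0% of genes by edgeR (1697 genes at an unadjusted p under 0.05, and 125 called by DESeq2). The difference of responses, P300 minus GFP, was -2.09 ± 0.95 for MT1X (edgeR adjusted p = 0.570) and 0.03 without P300 EtOH 1. For MT2A it was 0.46 ± 0.49 (adjusted p = 0.925), for SLC30A1 -0.25 ± 0.41, for MTF1 -0.08 ± 0.84 and for MT1F 0.25 ± 1.04.

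**Figure D5:**
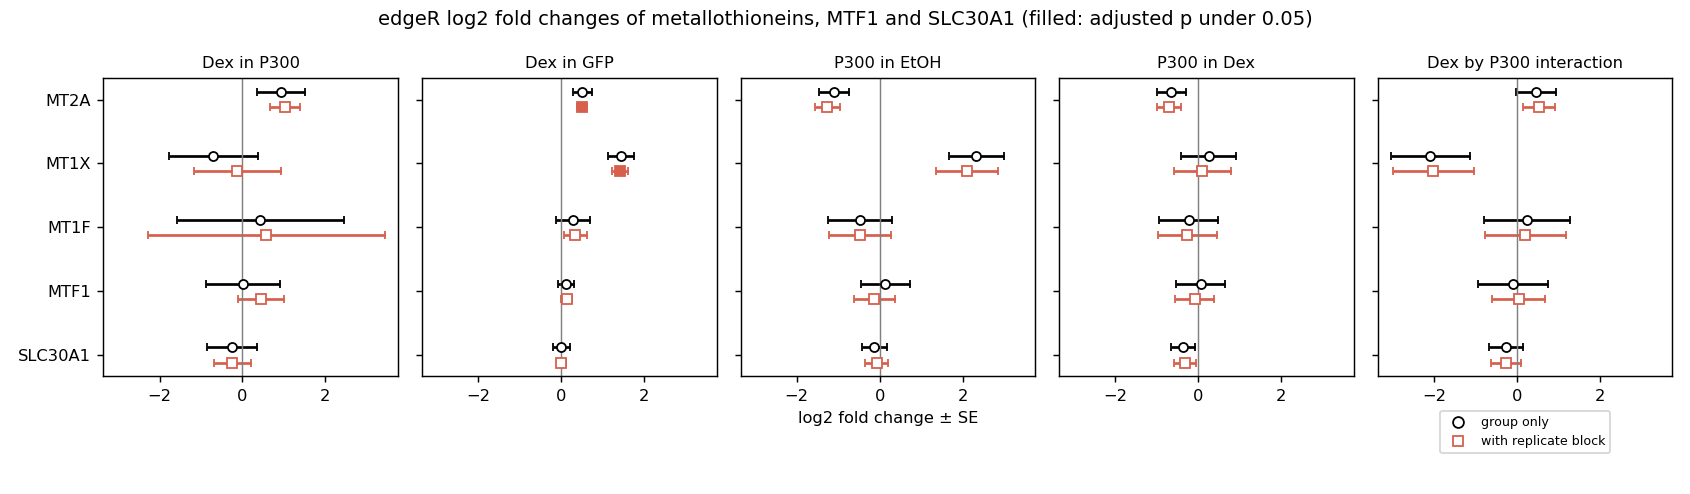
edgeR log2 fold changes with SE for 5 genes in 5 comparisons, with group only (circles) and with the replicate number as a block (squares), filled where the adjusted p is under 0.05. Only MT1X and MT2A for Dex in GFP with the block are filled, and the bar of each gene is wider in every comparison with P300 libraries than in Dex in GFP.

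No other zinc transporter tested was called after dexamethasone in GFP cells. Of the other 6 exporters of the SLC30 family measured, 0 of 6 were called in either edgeR fit and the median log2 fold change was 0.18 with the block, against 0.00 over all genes. The smallest p was that of SLC30A9, at 0.37 ± 0.11 (adjusted p = 0.134). Of the 12 importers of the SLC39 family tested, 0 were called and the median was 0.00. The farthest from 0 was the scarce SLC39A5, named after its values were seen, with 0.621 ± 0.224 CPM in GFP Dex and 1.42 ± 0.06 CPM in GFP EtOH (SD, n = 3 each) and a blocked change of -1.20 ± 0.42 (edgeR adjusted p = 0.206). SLC39A14, an importer of zinc and iron, had 179, 145 and 172 CPM in GFP Dex 1, 2 and 3, against 131, 118 and 147 CPM in GFP EtOH 1, 2 and 3. It was higher after Dex in 3 of 3 numbers, yet its blocked change of 0.32 ± 0.09 did not pass (edgeR adjusted p = 0.134). In P300 cells it had 282 and 151 CPM in P300 Dex 1 and 2, against 186 and 99.7 CPM in P300 EtOH 1 and 2, a difference of 0.60 in both numbers on the log2 CPM scale.

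Among 10 other genes known to respond to MTF1 or to metals, 1 was called, and it was lower. HMOX1, the inducible heme oxygenase, had 214, 130 and 226 CPM in GFP Dex 1, 2 and 3, against 257, 199 and 319 CPM in GFP EtOH 1, 2 and 3. It fell in the blocked edgeR fit (log2 -0.47 ± 0.10, adjusted p = 0.0285, against 0.635% of genes called lower) and did not pass with group only (adjusted p = 1.0). In P300 cells HMOX1 had 127 and 172 CPM in P300 Dex 1 and 2, against 124 and 147 CPM in P300 EtOH 1 and 2, with small differences of the opposite sign. The list's blocked median was -0.02. Of 11 genes of copper handling, 0 were called, with a median of 0.14. Of genes near the metallothionein cluster on chromosome 16, BBS2 had a blocked change of 0.41 ± 0.13 (edgeR adjusted p = 0.174) and OGFOD1 of 0.33 ± 0.10 (adjusted p = 0.155), and neither passed. All 8 genes of a list of established glucocorticoid targets were called higher with the block, against 1.02% of all genes, with a median of 1.43. With group only 1 of 8 was called higher, against 0.0419% of all genes. In P300 cells 2 of the 8, TSC22D3 and FKBP5, were called higher with the block, against 0.0361% of genes, and 0 with group only. That blocked fit leaves almost nothing to estimate the spread, so these calls are not firm. The list's blocked median there was 1.05, with KLF9 lowest at 0.09 ± 0.75 (SE). Between constructs in EtOH, FKBP5 was lower in P300 cells with the block (log2 -1.96 ± 0.39, edgeR adjusted p = 0.0405, against 1.18% of genes called lower).

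Between constructs no zinc, copper or metal-responsive gene of these lists passed with group only. The zinc importer SLC39A1 averaged 30.8 ± 2.50 CPM in P300 EtOH (SD, n = 2) and 82.9 ± 5.65 CPM in GFP EtOH (SD, n = 3), a log2 fold change of -1.42 ± 0.36 (edgeR adjusted p = 0.0592). CCS, the copper chaperone of superoxide dismutase, stood at -2.61 ± 0.69 there (adjusted p = 0.0648), and its lowest library, P300 EtOH 2, had 1.34 CPM, the level of 3 counts. In Dex, SLC31A1, a copper importer, had the smallest p of the copper list, at -1.11 ± 0.36 (adjusted p = 0.249).

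The genes whose pattern was most like that of MT2A and MT1X were found by the root mean square difference of log2 CPM, each gene centred on its own mean, over 9540 genes of at least 10 CPM. Over the 6 GFP libraries, MT1X was closest to FKBP5 (0.238), SDPR (0.269), FGD4 (0.274), GLRX (0.274) and ARC (0.304), against a median of 0.794 over all genes. FKBP5 encodes a co-chaperone of the glucocorticoid receptor. Over all 10 libraries its nearest gene was KLF9 (0.447), a transcription factor, followed by LDHAL6B (0.505), against a median of 1.15. MT2A was closest to PXDN (0.135), FOXO1 (0.146), ERAP2 (0.163), TNFAIP3 (0.168) and CITED2 (0.179) over the GFP libraries, against a median of 0.434. Over all 10 libraries MT2A was closest to EHD4 (0.230), ENY2 (0.264) and TTC17 (0.264), against a median of 0.724. These are descriptions over libraries that share depth, construct and number, and the nearest genes of MT2A and MT1X had no name in common.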

How the data were processed

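Values were the raw counts per gene that the authors deposited for each library, per the file headers. According to the submitters' processing notes, the tools were STAR 2.4.2a, HTSeq 0.6.1p1, cutadapt and DESeq2 1.10.1, on build GRCh37. The annotation, like the strand setting, is not given in the sources used here, and the labels' protocols describe both a stranded total RNA kit and a poly(A) kit without assigning them to libraries. The signal block the authors deposited beside the counts, 10 columns of normalized counts, was not used, nor was a sheet of thresholds.

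Counts were tested with edgeR 4.0.16 in R 4.3.3 (TMM factors, default filter by group, quasi-likelihood test, two-sided, Benjamini-Hochberg over all genes tested, threshold 0.05). Dex in GFP used 6 libraries, Dex in P300 4, and the comparisons between constructs and the interaction all 10, with group as the only term. CPM use TMM sizes of all 10 libraries, and log2 CPM a prior count of 2. SE is the absolute log2 fold change over the square root of F. Alternatives included a replicate block, DESeq2 1.42.0, limma-voom (limma 3.58.1), other factors and filters, and each library left out. The steps were tested on simulated data. For comparisons with P300 libraries the simulated dispersion was below their 0.596, so that test cannot show how the steps perform there. Members and lists were chosen with earlier results of these data known. All members were named, and from each list the called genes, otherwise those with the smallest p among genes of at least 1 CPM. Part of the list of genes near the metallothionein cluster is not reported here.

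Replicate numbers were taken as a possible pairing of the samples, since the labels do not say what a number shares. Deviations from group means correlated between libraries of the same number in every pair (r = 0.113 to 0.601), in the GFP groups at 0.357 to 0.601, against -0.484 to 0.202 for different numbers there. Centring on group means ties the deviations within a group together. The pairs are thus not independent, and the lower values for different numbers follow in part from the centring. Blocked values stand beside results whose call they change. No 2 libraries of a group agreed within sampling noise. Promoters came from RefSeq (GRCh38.p14) and coding sequences and lengths from GENCODE 29 (GRCh38), matched by symbol or identifier, and neither was combined with coordinates of the counts.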

Additional observations from a re-analysis of the deposited data

How the results depend on the processing

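Of the 5 genes tested, 0 were called by edgeR with group only in any comparison. For Dex in GFP, 2 were called (MT1X and MT2A) with the replicate block in the 6 GFP libraries, alone or with DESeq2, limma-voom or RLE factors, 1 (MT1X) with DESeq2 alone and with the block on library sizes alone, and 0 with the block in all 10 libraries. With the block and without replicate number 1, 2 or 3, 1, 2 and 1 were called, and without single libraries and no block 0. MT1X was positive in all 24 alternatives (log2 1.11 to 1.65) and MT2A too (0.30 to 0.68). For P300 in EtOH, 1 was called (MT2A) in a fit of only the libraries compared with the block, 1 (MT1X) by DESeq2, and 0 to 2 when 1 library was left out. The replicate block changed no other call among the 5 genes, and the cause of these changes was not tested. Calls over all genes moved more. For Dex in GFP they numbered 7, against 277 with the block, 56 with DESeq2, 0 with all 10 libraries, library sizes alone or the 5 CPM filter, 245 to 279 with the block and another tool or scaling, and 0 to 19 without 1 library (248 to 1198 with the block and without 1 number). For Dex in P300 they numbered 0, against 6 with the block and up to 221 without P300 EtOH 1. For P300 in EtOH they numbered 541, against 49 in the libraries compared, 2409 with DESeq2, 354 with limma-voom, 4187 without P300 EtOH 1 and 0 without GFP EtOH 1. For P300 in Dex they numbered 2, against 702 with DESeq2, 150 in the libraries compared with the block, 14 without a filter, 1 with limma-voom or EP300 removed, 0 in the libraries compared and 0 to 499 without 1 library. The interaction gave 0, against 125 with DESeq2 and 1407 without P300 EtOH 1.

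Directions turned for genes whose main value lay near 0 or rested on 1 library. SLC30A1 for Dex in GFP stood at -0.010 with library sizes alone, -0.0085 with the 5 CPM filter, at -0.017 and -0.11 with the block on library sizes alone and without number 1, and at -0.14 to 0.14 without 1 library. SLC30A1 for P300 in EtOH stood at 0.0038 in the libraries compared with the block, 0.0059 with DESeq2, 0.012 with RLE factors, 0.018 with the 5 CPM filter and -0.40 to 0.042 without 1 library. MTF1 for Dex in GFP was at -0.039 with the block without number 2 and at -0.030 to 0.24 without 1 library. MTF1 for Dex in P300 was at -0.020 with limma-voom, -0.0038 with the 5 CPM filter and -0.77 to 2.09 without 1 library. MTF1 for P300 in EtOH was at -0.12 with the block, -0.19 in the libraries compared with the block, -0.16 with library sizes alone and -1.85 to 0.83 without 1 library. MTF1 for P300 in Dex was at -0.080 with the block, -0.098 in the libraries compared with the block, -0.048 with limma-voom, -0.19 with library sizes alone, -0.013 without a filter and -0.66 to 0.47 without 1 library. MTF1 in the interaction was at 0.044 with the block and at -0.82 to 1.86 without 1 library. Without 1 library, MT1X ranged over -1.39 to 1.53 for Dex in P300, -0.11 to 0.55 for P300 in Dex and -2.83 to 0.026 in the interaction. MT1F ranged over -0.15 to 1.46 for Dex in P300, -1.46 to 0.23 for P300 in EtOH and -0.49 to 1.18 in the interaction. Depth limits MT1F and MT1A in every library and all genes in P300 EtOH 2, and the 5 CPM filter left MT1F out.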
